A study of Mus musculus with 26 samples.

Results

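The H3K27Ac-marked regions of E11.5 TrkC neurons were described here gene by gene. The members were all 32655 consensus H3K27Ac peaks, out of 159182 peaks in the 5 lists of the series, and each peak was given to the protein-coding gene whose transcription start site (TSS) lay nearest to its midpoint. The neurons came from dorsal root ganglia (DRG) of E11.5 BAC-E-GFP embryos, pooled per sample and, per the labels, sorted for GFP. The methods add that the ganglia were mainly cervical. They also state that some experiments used magnetic separation with an anti-TrkC antibody, from GFP-positive or wild-type mice, and do not tie these to samples. In BAC-E-GFP mice a bacterial artificial chromosome spanning 220 kb of the *Runx3* locus (BAC-E) carries EGFP fused into *Runx3*, so cells of these mice hold extra copies of that span. The series has 26 samples, of which 5 are H3K27Ac CUT&RUN, 5 are the non-immune rabbit serum control of CUT&RUN, 8 Runx3, 2 Brn3a and 3 Isl1 CUT&RUN, and 3 ATAC. The H3K27Ac antibody was used at 1:50, and the peaks were called against serum by the authors.

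H3K27Ac is acetylation of lysine 27 on histone H3, placed mainly by the acetyltransferases p300 and CBP. It is found on the nucleosomes around active promoters and active enhancers, and on the same residue it excludes the methylation laid down by Polycomb repressive complexes. CUT&RUN cuts DNA next to an antibody bound in permeabilized cells, so released fragments mark where the antibody sat. The list gives the position of each peak and no height, score or per-sample value, and a peak had to be found in at least 3 of 5 samples to be listed. The depth of the libraries is therefore unknown, a peak is either listed or not, and no comparison between samples could be tested. Shares below carry a 95% Wilson interval, which covers counting over genes or peaks and not the spread between embryos. Because cells were pooled, acetylation in a few cells and weak acetylation in all cells cannot be told apart.

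The promoters of 6 genes show the sequence contrast that ran through the list, and were picked after their values were seen. Each line gives the strand of the gene from 75 bases before to 44 bases after the 5′-most protein-coding TSS, read from the GRCm38 (mm10) genome, with every CpG in capitals. *Rpl13a* (chr7:45128717-45128836, minus strand), a protein of the large ribosomal subunit, *Isl1* (chr13:116309645-116309764, minus strand), a LIM homeodomain TF of sensory and motor neurons, and *Tubb3* (chr8:123411349-123411468, plus strand), the neuronal beta-tubulin, had marked promoters. *Pou4f1* (chr14:104467955-104468074, minus strand), which encodes Brn3a, *Spi1* (chr2:91082315-91082434, plus strand), the myeloid TF PU.1, and *Alb* (chr5:90460822-90460941, plus strand), the albumin of liver, did not.
Rpl13a: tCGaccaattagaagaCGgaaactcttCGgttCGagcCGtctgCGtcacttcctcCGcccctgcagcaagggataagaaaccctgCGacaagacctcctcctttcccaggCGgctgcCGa
Isl1: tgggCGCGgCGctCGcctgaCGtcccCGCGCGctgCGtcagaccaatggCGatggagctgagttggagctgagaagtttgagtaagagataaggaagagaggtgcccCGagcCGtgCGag
Tubb3: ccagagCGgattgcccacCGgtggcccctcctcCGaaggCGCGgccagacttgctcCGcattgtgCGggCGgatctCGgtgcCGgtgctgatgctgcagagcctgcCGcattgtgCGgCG
Pou4f1: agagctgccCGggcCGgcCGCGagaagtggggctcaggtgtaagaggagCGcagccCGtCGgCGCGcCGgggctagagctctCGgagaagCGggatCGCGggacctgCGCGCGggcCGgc
Spi1: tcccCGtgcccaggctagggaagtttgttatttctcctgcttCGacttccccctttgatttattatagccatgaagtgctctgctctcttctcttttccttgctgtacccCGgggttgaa
Alb: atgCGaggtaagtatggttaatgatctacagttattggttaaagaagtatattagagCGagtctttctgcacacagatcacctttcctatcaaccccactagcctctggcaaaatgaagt
The 120 bases held 10 CpGs in *Rpl13a*, 13 in *Isl1* and 13 in *Tubb3*, against 3 in *Spi1* and 2 in *Alb*. *Pou4f1* held the most, 18, and was unmarked, with an ATAC peak in its promoter region.

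Most protein-coding genes had a marked promoter. Of 21853 genes, 12685 had H3K27Ac within 1 kb of a protein-coding TSS, which is 58.0% (57.4 to 58.7%), and this share is the background for every family and list below (58%). The nearest-TSS rule gave peaks to 13690 genes, or 62.6% of all (62.0 to 63.3%). Both properties were present in 11761 genes (53.8%), while 7239 genes (33.1%) had neither. A further 1929 genes had an unmarked promoter but were nearest to at least 1 peak, and 924 had a marked promoter whose peak midpoints lay closer to a neighbouring gene.

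Divergent gene pairs were marked together. In 768 pairs of genes whose 5′-most start sites lay within 1 kb of each other on opposite strands, both promoters were marked in 721 (93.9%). The promoter windows of such a pair overlap, so a shared peak can mark both promoters and joint marking is partly built into the definition. Among genes in these pairs 94.5% were marked (93.2 to 95.5%), compared with 55.3% of all other genes (54.6 to 56.0%). The difference was also seen among CpG-rich promoters, as defined below, with 98.8% of 751 marked (97.7 to 99.4%) in the pairs and 91.2% of 4758 (90.4 to 92.0%) elsewhere.

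CpG content of the promoter separated marked from unmarked genes. Promoters were classed over 500 bp on each side of the 5′-most protein-coding TSS as CpG-rich (observed over expected CpG above 0.75 and GC above 55%), CpG-poor (ratio below 0.48) or intermediate. At this start site H3K27Ac marked 92.3% of 5509 CpG-rich promoters (91.5 to 92.9%), 83.1% of 6619 intermediate promoters (82.2 to 84.0%) and 15.0% of 9725 CpG-poor promoters (14.3 to 15.7%). The median ratio was 0.74 in marked and 0.20 in unmarked promoters. In steps of the ratio, the marked share went from 1.81% in the lowest class of 1768 promoters to 54.0% between 0.4 and 0.5 and 96.8% in the 412 promoters at 1 or more. The share was higher in every step than in the one before it.

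Accessibility separated promoters further within each class. With an ATAC peak in the promoter region, 93.8% of CpG-rich (93.2 to 94.5%), 89.8% of intermediate (89.0 to 90.5%) and 65.9% of CpG-poor promoters (63.8 to 68.0%) were marked. Without one, the shares were 16.1% of 112 (10.4 to 23.98%), 13.2% of 576 (10.7 to 16.2%) and 2.76% of 7840 (2.42 to 3.14%). Over all genes and start sites, 88.5% of 14032 open and 3.41% of 7821 closed promoters were marked.

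**Figure D1:**
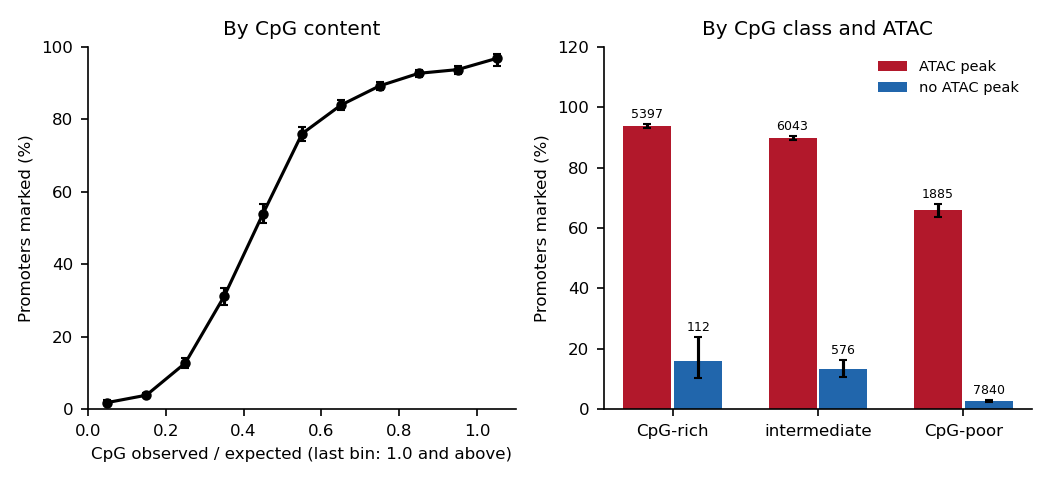
The share of promoters marked by H3K27Ac (percent, with 95% Wilson intervals) is plotted on the left in steps of the observed over expected CpG ratio and on the right by CpG class, with the number of promoters above each bar. The share climbed from 1.81% to 96.8% along the ratio, and in each class it was higher with an ATAC peak, 65.9% against 2.76% among CpG-poor promoters.

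Promoter peaks were centred just downstream of the TSS. Among 12045 genes marked at the 5′-most start site, the start base itself lay in a peak in 89.6%, the position 500 bp downstream in 74.4% and the position 500 bp upstream in 39.5%. At 1 kb the shares were 31.5% downstream and 11.9% upstream. In CpG-rich promoters 94.5% of start bases were covered and 54.8% of positions 500 bp upstream, compared with 65.3% and 16.4% in CpG-poor ones. The widest peak at the promoter had a median of 1408 bp in CpG-rich, 1067 bp in intermediate and 840 bp in CpG-poor promoters.

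**Figure D2:**
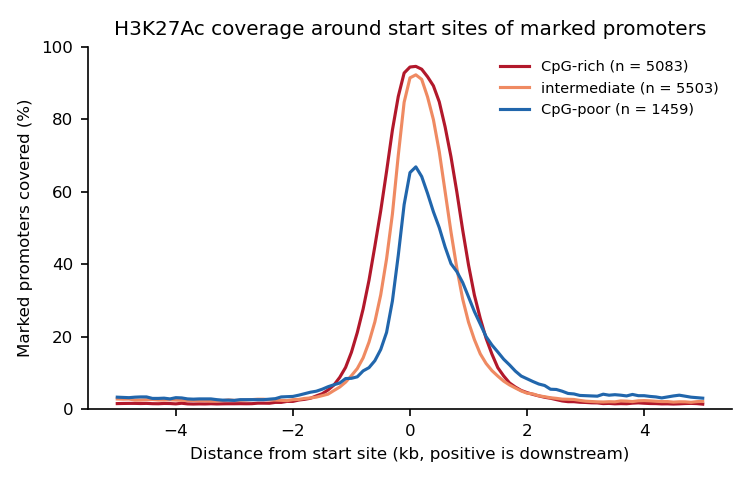
Percent of marked promoters whose base at each distance from the 5′-most start site (kb, positive values downstream) lay inside an H3K27Ac peak, for the 3 CpG classes. Coverage was highest at and just after the start site, was broader in CpG-rich promoters and reached 65.3% at the start base in CpG-poor promoters.

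Some short promoter motifs followed the same division. The window of 250 bases before to 50 after the start site was searched on both strands for exact matches, which are descriptions of sequence and not sites of binding. The GC box GGGCGG, whose letters include a CpG, was present in 43.9% of all promoters, in 64.7% of marked and 18.3% of unmarked ones. The ETS motif CCGGAAG, whose letters also include a CpG, was present in 10.98% of all promoters, in 17.7% of marked and 2.75% of unmarked ones. TATAAA, the TATA box, showed the opposite order, with 12.6% of all, 6.72% of marked (6.28 to 7.18%) and 19.9% of unmarked promoters (19.1 to 20.7%). CCAAT was found in 39.3% of marked and 38.7% of unmarked promoters, with overlapping intervals, and in 39.0% of all. When only CpG-rich promoters were considered, the intervals of the GC box overlapped (78.5% of marked, 77.4 to 79.6%, and 80.0% of 426 unmarked, 76.0 to 83.6%), whereas those of CCGGAAG did not (19.9%, 18.8 to 20.97%, and 4.69%, 3.06 to 7.14%). In the same class TATAAA was found in 4.51% of marked (3.97 to 5.11%) and 5.40% of unmarked promoters (3.62 to 7.97%), with overlapping intervals, and CCAAT in 36.5% (35.2 to 37.9%) and 26.1% (22.1 to 30.4%), without overlap.

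Peaks outside promoters made up the larger share of the list, but not among peaks of at least 500 bp (51.6% in promoters). The midpoint lay within 1 kb of a protein-coding TSS in 13422 peaks (41.1%, 40.6 to 41.6%), at 1 to 10 kb in 5081 (15.6%), at 10 to 100 kb in 10916 (33.4%) and beyond 100 kb in 3236 (9.91%). Of those outside promoters, 10229 lay in introns, 8192 in intergenic regions and 812 in exons of protein-coding genes. Promoter peaks were 1047 bp wide at the median, from 686 bp at the lower to 1478 bp at the upper quartile, compared with medians of 561, 557 and 538 bp in the more distant classes. Median CpG density fell from 6.15 per 100 bp in promoter peaks to 1.65 beyond 100 kb.

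Overlap with the other lists of the series changed with this distance. An ATAC peak overlapped 92.2% of promoter peaks (91.8 to 92.7%) but 57.5% (56.1 to 58.8%), 61.1% (60.2 to 62.1%) and 61.9% (60.2 to 63.6%) of the 3 classes further away. Runx3 peaks overlapped 38.0% of H3K27Ac peaks at promoters and 13.3 to 14.8% elsewhere. Isl1 showed the reverse, with 5.45% at promoters and 18.7% (17.4 to 20.04%) beyond 100 kb. Brn3a overlapped 29.1% at promoters, 16.7% at 1 to 10 kb and 31.6% beyond 100 kb. Among peaks away from promoters, those without any of the 3 TFs had a median width of 531 bp and an ATAC peak in 50.4%, while the 1057 with all 3 had 648 bp and 92.9%.

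Most genes had few peaks. Among the 13690 genes with a peak, 7430 (54.3%) had 1, 4692 had 2 to 4, 1214 had 5 to 9 and 354 had 10 or more. Those 354 genes took 16.5% of all peaks. The covered length per gene had a median of 1457 bp, quartiles of 912 and 2371 bp, and a 95th percentile of 5949 bp, and the 1369 genes with the longest coverage held 35.9% of all covered bases. Genes with more peaks also lay in longer stretches, a stretch being the length of chromosome closer to a gene's start sites than to any other gene's. The median stretch was 32.7 kb for genes without a peak, 38.0 kb with 1 peak and 291.4 kb with 10 or more. The rank correlation of peak number with stretch was 0.45 over 13690 genes, which share borders and are not independent.

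**Figure D3:**
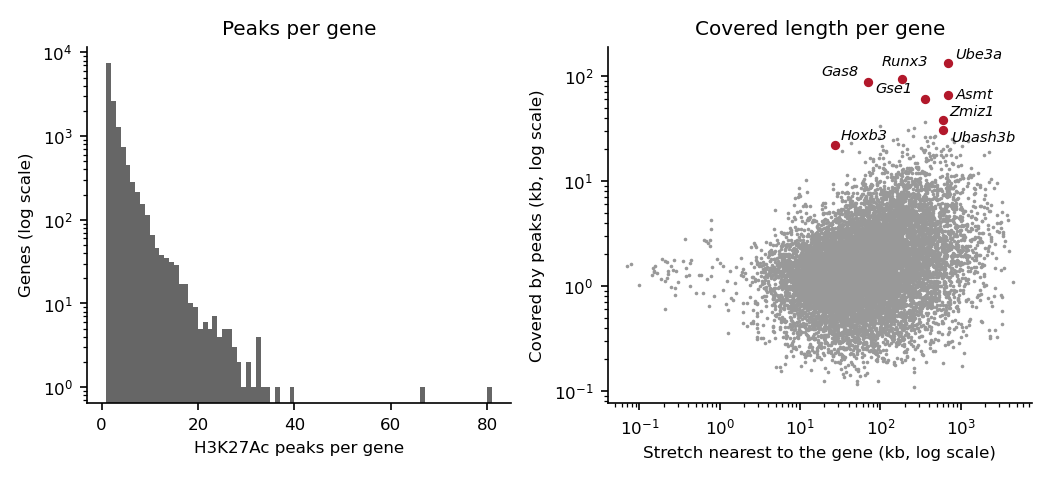
The left panel counts genes by their number of H3K27Ac peaks (log scale) and the right panel plots the covered length (kb) of each gene against the stretch nearest to it (kb), with both of its axes on log scales. *Gse1* with 80 peaks and *Runx3* with 66 stood apart on the left, and 8 named genes are marked on the right, *Ube3a* being the highest at 132.2 kb.

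*Gse1* and *Runx3* had more peaks than any other gene. *Gse1*, a component of a histone deacetylase and demethylase complex, had 80 peaks covering 59974 bp of a 360.4 kb stretch. Its peaks had a median width of 638 bp, 38 of them overlapped an ATAC peak and none consisted of repeated sequence. The span of 343.6 kb from its leftmost to its rightmost peak held 80 H3K27Ac peaks, compared with 16 and 12 in flanking spans of the same length. *Gse1* was picked for its peak number and its own peaks set these borders, so this contrast in H3K27Ac was built into the choice. The same span held 50 ATAC peaks, against 23 and 19. *Zmiz1*, a coactivator of the PIAS family, had 39 peaks and 37.9 kb, with a 5126 bp peak over its promoter. *Zfp36l1*, an RNA-binding protein that promotes mRNA decay, had 36, *Myt1l*, a neuronal zinc finger TF, had 34, and *Nav2*, a neuron navigator protein, had 33. *Prex1*, *Ubash3b* and *Zfp423* had 32 each. *Bach2*, a bZIP TF, had 28 peaks over 26.1 kb.

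*Runx3* (chr4:135120652-135177990, plus strand) had 66 peaks and 94.1 kb, and its upstream neighbour *Syf2* had 32 peaks and 33.4 kb. The BAC-E span (chr4:134954652-135174651) starts downstream of *Syf2*. It held 96 peaks covering 125.8 kb, whereas the flanks of equal length held 9 and 5 peaks covering 10.2 and 6.08 kb. The flank with 9 peaks is the one that contains *Syf2*, so most of the 32 peaks given to *Syf2* lay inside the span. ATAC peaks numbered 39 inside and 12 and 8 outside, and Isl1 peaks 119 inside and 1 and 0 outside. Of the 66 *Runx3* peaks 20 overlapped an ATAC peak, 32 a Runx3 peak and 42 an Isl1 peak. The transgene copies and the endogenous locus cannot be told apart here.

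In 5 of the 15 genes with the longest coverage most covered bases lay in peaks of repeated sequence. *Ube3a*, a ubiquitin ligase of the imprinted Prader-Willi and Angelman region, had 132.2 kb in 6 peaks. Of these, a peak 93.9 kb wide and centred 266.3 kb downstream of its TSS covered 50 annotated snoRNA genes, and without its 5 repeated peaks *Ube3a* kept 2246 bp, the peak at its promoter. *Gas8*, a subunit of the axonemal dynein regulator, had an 86.7 kb peak over 51 annotated rRNA genes and otherwise 1064 bp. *Asmt* (66.0 kb), *Apba2* (36.8 kb) and *Gm21119* (32.3 kb) fell to 6821, 6399 and 2731 bp. Repetition was measured as the share of 24-base words present more than once in the same peak. It lay between 68.5 and 98.3% in all 13 peaks of at least 10 kb, none of which had its midpoint within 1 kb of a TSS and 3 of which overlapped an ATAC peak.

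The most frequent 24-base word shows what such peaks hold; it is printed for 3 of them, from the plus strand of GRCm38, with capitals reserved for CpG, of which these words have none. The spacing given is the most common one between successive copies over all repeated words of the peak. In the peak near *Ube3a* the word starting at chr7:59506272-59506295 occurred 50 times, and the spacing was 1.87 kb. In the peak at -20.7 kb, that is upstream, of *Apba2* (chr7:64465808-64465831) the word occurred 457 times, and the spacing was 46 bases. In the peak near *Flg2* (chr3:93204194-93204217), which encodes the repetitive skin protein filaggrin-2, the word occurred 60 times, and the spacing was 234 bases.
Ube3a: tgtatcaacctaatgtgtagagct
Apba2: tgtattacagtcactgctgtctgt
Flg2: tgagtccagtgagggtgaggaaca
Across the list, 1062 peaks (3.25%) had at least 50% of their words repeated. An ATAC peak overlapped 5.46% of them and 75.7% of the remaining peaks, and 1.04% against 42.4% were at promoters. How reads with several matches in the genome were treated in CUT&RUN is not given in the sources used here, and the part of such reads in these peaks was not tested.

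Wide peaks of non-repeated sequence lay at other genes. Of 58 peaks of 5 kb or more, 19 had less than 50% of their words repeated, 16 of these overlapped an ATAC peak and 11 had their midpoint within 1 kb of a TSS. The widest covered the promoter of *Id2*, an inhibitor of bHLH TFs, with 6725 bp. It was followed, among non-repeated peaks that overlapped a promoter region, by *Tnrc18* (6659 bp), *Hoxa2* (6174 bp), the MAP kinase phosphatase gene *Dusp4* (6151 bp), *Zfp532* (5932 bp), *Irf2bp2* (5909 bp) and the RNA-binding protein gene *Mex3b* (5804 bp). *Ahnak2* (8664 bp) and *Flg* (8469 bp) also ranked among the 10 widest promoter peaks, as did *Gm36079* (5854 bp), but more than 93% of the words in each of these were repeated. Over all marked promoters the widest peak had a median of 1181 bp and a 95th percentile of 2357 bp.

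Hox genes, which set position along the body axis, were divided by paralogue group in these mainly cervical ganglia. All 30 genes of groups 1 to 10 had a marked promoter and at least 1 peak, and none of the 9 genes of groups 11 to 13 had either. The 30 genes held 150 peaks covering 176.4 kb, or 30.9% of their stretches. *Hoxb3* was the longest with 22.2 kb in 15 peaks, followed by *Hoxd3* with 19.4 kb in 14 and *Hoxc4* with 16.1 kb in 16. The group 10 genes had 3008 bp in *Hoxa10*, 1383 bp in *Hoxc10* and 574 bp in *Hoxd10*, below the median of 4594.5 bp in groups 1 to 10. So did some genes of other groups, such as *Hoxa6* (2079 bp) and *Hoxb1* (1894 bp). The D cluster beyond *Hoxd4* held little, from 574 to 941 bp per gene in *Hoxd8*, *Hoxd9* and *Hoxd10*. ATAC peaks were present in the promoter regions of 27 of the 30 genes and of 3 of the 9. *Hoxb3* and *Hoxd3* also ranked just below *Gas8* when covered bases were taken per kb of stretch among genes with at least 20 kb, with 824.3 and 591.0 bp per kb. *Rara*, a retinoic acid receptor, followed with 352.8 bp per kb after *Gm47283*, *Runx3* and *Gpr84*.

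**Figure D4:**
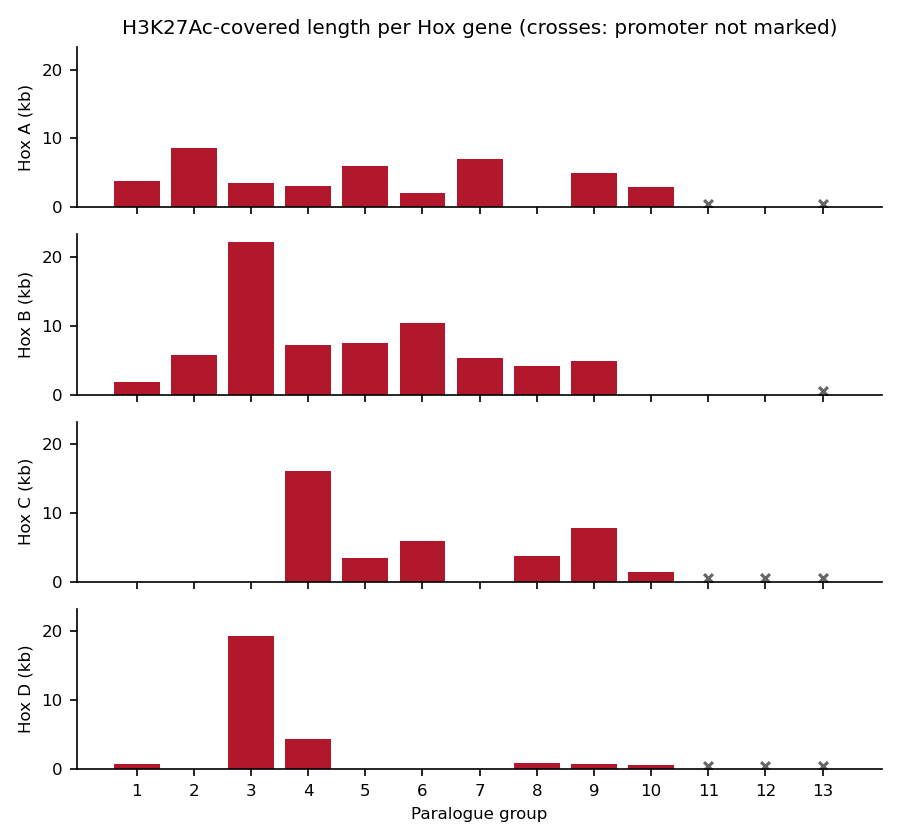
Length covered by H3K27Ac peaks (kb) for each of the 39 Hox genes, by cluster and paralogue group, where crosses mark genes whose promoter was not marked. Bars are present for all 30 genes of groups 1 to 10, the tallest being *Hoxb3* at 22.2 kb, and absent for groups 11 to 13.

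A chosen set of 12 other developmental TF families was marked less often at promoters. The set left out Klf genes (13 of 17 marked, 52.7 to 90.4%) and Hes and Hey genes (5 of 9, 26.7 to 81.1%). Over the 12 families (Pax, LIM homeobox, T-box, Nkx, Dlx, forkhead, Sox, POU, Gata, sine oculis homeobox, Irx and neural bHLH, 173 genes), 33.5% of promoters were marked (26.9 to 40.9%) beside 58.0% of all genes. Their promoters were open in 73.4% (66.4 to 79.4%). Of the 127 open ones 45.7% were marked (37.3 to 54.3%), compared with 88.9% of 13905 open promoters of other genes (88.4 to 89.4%). The division was also seen among genes classed CpG-rich or intermediate at the 5′-most start site, with marking counted at any protein-coding start site. There 37.7% of the 138 genes of these families were marked (30.03 to 46.0%) and 88.8% of the 11990 other genes (88.2 to 89.4%). Among the unmarked genes 62 of 115 (53.9%, 44.8 to 62.7%) were nearest to at least 1 peak, against 20.6% of other unmarked genes (19.8 to 21.5%). Their stretches were longer, with a median of 121.4 kb against 46.5 kb of all genes. By stretch, the shares of these and of other unmarked genes were 80.6% of 31 (63.7 to 90.8%) and 35.9% of 1022 (33.03 to 38.9%) at 100 to 200 kb. At 200 kb or more they were 61.3% of 31 (43.8 to 76.3%) and 35.1% (32.4 to 38.0%), and at 20 to 50 kb 43.8% of 16 (23.1 to 66.8%) and 16.2% (15.0 to 17.6%). At 50 to 100 kb the intervals overlapped, with 40.7% of 27 (24.5 to 59.3%) and 25.9% (23.9 to 28.0%), and under 20 kb 0 of 10 and 7.76% had a peak.

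Marked shares of the 12 families ran from 0% in Gata genes to 52.6% in Sox genes. Their intervals overlapped (0 to 39.0% and 31.7 to 72.7%), so a difference between families is not shown. The intervals of Sox genes (10 of 19 marked, 31.7 to 72.7%), forkhead genes (20 of 44, 31.7 to 59.9%), and the Irx and sine oculis homeobox genes (3 of 6 each, 18.8 to 81.2%) contained the 58.0% of all genes. So did those of POU genes (6 of 15, 19.8 to 64.3%) and Dlx genes (2 of 6, 9.68 to 70.0%). T-box genes, regulators of mesoderm, heart and limb, had 2 of 16 promoters marked (*Tbx3* and *Tbx6*) while 12 were nearest to a peak (75%, beside 62.6% of all genes). Pax genes had 2 of 9 marked (*Pax5* and *Pax6*) and 8 with a peak, but none was marked when 1 start site per gene was used (0%). Among 12 LIM homeobox genes *Isl1*, *Isl2* and *Lhx9* were marked and 10 had a peak, and with 1 start site per gene the marked share fell from 25% to 8.33%. Neural bHLH genes had 5 of 20 marked (25%), and 10% within 500 bp of a start site. All 6 Gata promoters were unmarked, and 2 of these genes had a peak. Of 14 Nkx genes 2 were marked, among them *Nkx6-1*, and 6 had a peak. The Wnt ligands, which are not TFs, had 5 of 19 marked and 13 with a peak (68.4%), near the share of all genes.

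Families of RNA processing, DNA replication, mitochondria and translation lay at the top. All 20 hnRNP genes, which package nascent RNA, and all 9 Mcm genes, which license and unwind replication origins, were marked. Mitochondrial ribosomal proteins followed with 77 of 78, subunits of NADH dehydrogenase with 45 of 46, replication-dependent histones with 63 of 67 and translation initiation factors with 51 of 55. Cytosolic ribosomal proteins had 91 of 102 marked, and the 11 others were mostly pseudogene or variant copies such as *Rpl10l* and *Rpl3l*, with *Rps29* among them. Families of axon guidance and the kinesins were also high. Ephrins and Eph receptors had 21 of 22 marked and a median of 4 peaks, semaphorins 17 of 20 and kinesins 35 of 39. The kinesins were taken by symbol and not by a role in axonal transport. Zinc finger genes named Zfp had 341 of 394 (86.5%, 82.8 to 89.6%).

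Chemosensory and barrier families lay at the bottom. Of 1134 olfactory receptor genes 1 was marked, *Olfr94* (0.0882%, 0.0156 to 0.498%), and 20 were nearest to a peak. Of 329 vomeronasal receptor genes only *Vmn1r4* was marked. No promoter was marked among 64 defensins (0 of 64, upper bound 5.66%), 57 keratin-associated proteins (upper bound 6.31%) and 53 taste and trace amine receptors (upper bound 6.76%). Keratins had 4 of 53 marked and clustered protocadherins 3 of 57, all 3 at C-type genes (*Pcdhac2*, *Pcdhgc3* and *Pcdhgc4*). Among channels, 44 of 94 potassium channel, 16 of 26 calcium channel and 8 of 24 TRP channel promoters were marked. In all 27 of 65 families lay above the share of all genes.

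**Figure D5:**
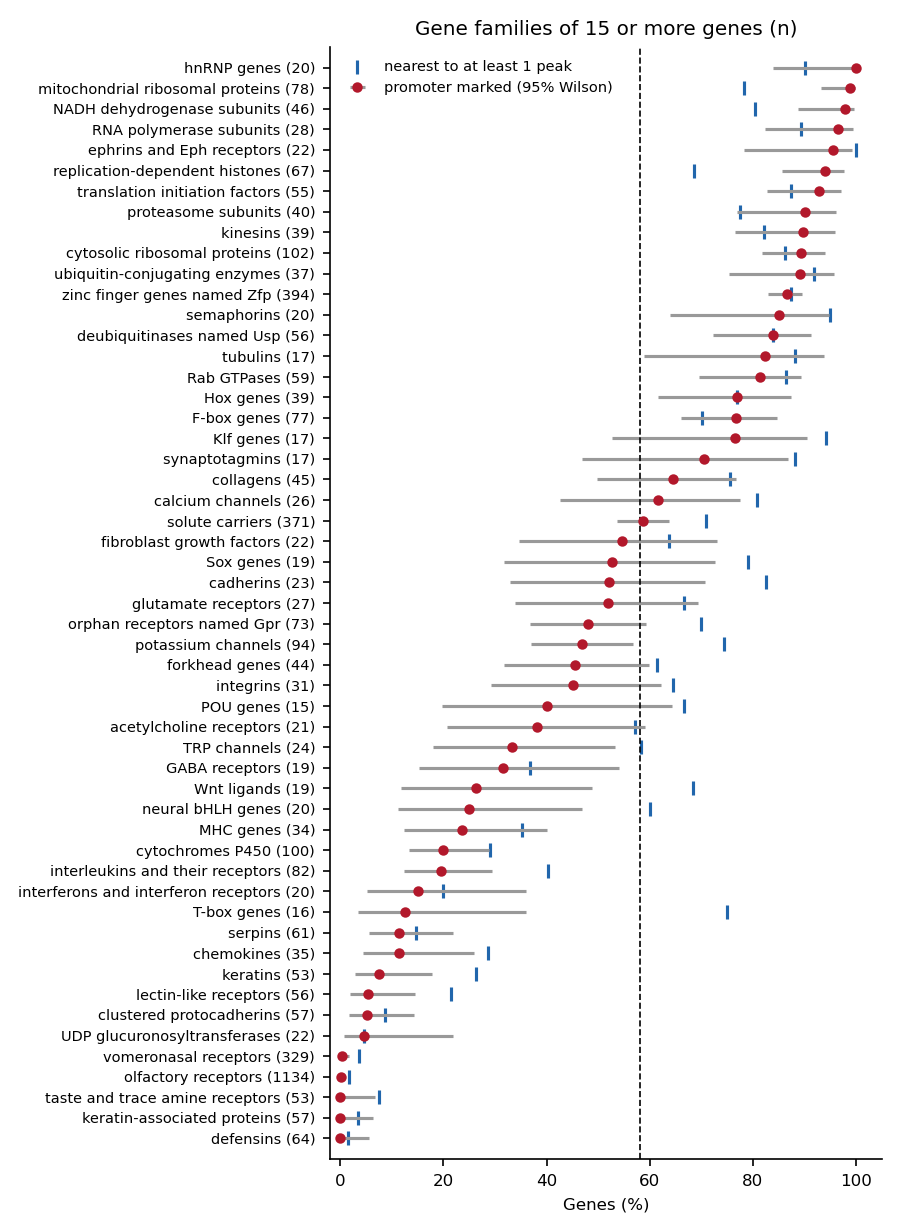
Percent of genes with a marked promoter (points, with 95% Wilson intervals) and percent nearest to at least 1 peak (ticks) in each gene family of 15 or more genes, with the number of genes in parentheses and the share of all genes (58.0%) as a dashed line. The hnRNP genes, mitochondrial ribosomal proteins and NADH dehydrogenase subunits lie furthest to the right, olfactory, vomeronasal, taste and lectin-like receptors, keratins, keratin-associated proteins and defensins at 0 to 10%, and in T-box, Wnt and neural bHLH genes the tick lies far to the right of the point.

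The lists of cell type genes were read against the label of the sample. Of 11 genes listed as markers of DRG TrkC neurons, 9 had a marked promoter, beside 58.0% of all genes. The exceptions were *Pou4f1* and *Prdm12*, a TF of the sensory lineage needed for nociceptors. All 11 were nearest to a peak (62.6% of all genes) and had an ATAC peak at the promoter (64.2% of all genes). The list is short and includes genes of neurons in general, such as *Tubb3*, and *Runx3*, which overlaps the BAC-E span. It therefore cannot tell TrkC neurons from other neurons. No promoter was marked among the 6 myeloid and lymphoid, 4 erythroid, 3 muscle and 2 liver markers. Of 6 glial and neural crest markers 2 were marked, among them *Erbb3*, of 4 mesenchymal ones *Col1a1* and *Pdgfra*, and of 3 endothelial ones *Kdr*. The part of such other cells in the list was not tested. Over the longer lists, 1 of 20 myeloid and lymphoid genes (*C1qb*) and 1 of 12 erythroid genes (*Epor*) were marked, against 25 of 25 genes used by every cell. Of the glial and neural crest list 7 of 16 were marked (43.8%, 23.1 to 66.8%), among them *Sox9* with 16 peaks and 11087 bp and *Sox2* with 10 peaks and 6084 bp. Of the mesenchymal and endothelial list 6 of 16 were marked (37.5%, 18.5 to 61.4%), and of the muscle, liver and gut list 0 of 16. All 20 genes of cell division were marked as well, with 1 peak each as a median, and *Mki67* had 12 peaks.

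TFs of sensory neurons were marked in 25 of 31 genes (80.6%, 63.7 to 90.8%), with a median of 4 peaks. *Sox11* had 22 peaks covering 21671 bp, with 3409 bp at its promoter and the others between -590.1 and 324.2 kb of its TSS, negative values lying upstream, and *Sox4* had 21 covering 17054 bp. *Ebf3*, a TF of neuronal differentiation, had 23 peaks (14.9 kb) and *Ebf1* 20 (9754 bp). *Klf7* had 9 peaks and 9546 bp. *Isl1* had 2 peaks, 1 of 658 bp at the promoter and the other at -186.1 kb, which overlapped Runx3, Brn3a and Isl1 peaks. *Pou4f1* had 4, at -6.09, -5.145, 10.8 and 169.7 kb from its TSS, all overlapping ATAC peaks, the 3 closest being 301, 480 and 378 bp wide. *Prdm12* had 1 peak of 740 bp, at -2.05 kb, without ATAC. *Hmx1*, *Neurod2*, *Neurod4* and *Neurog2* were unmarked too, and *Neurod2* and *Neurod4* had no peak.

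Receptors and ligands of the neurotrophic factors were marked in 10 of 16 genes (62.5%, 38.6 to 81.5%). With 1 start site per gene this share was 37.5%, below the 54.9% of all genes in that setting. *Ntrk3*, which encodes TrkC, had 10 peaks covering 4748 bp, 3 of them at promoters and none wider than 804 bp. *Ntrk2*, encoding TrkB, had 11 peaks and 9119 bp, with 2633 bp at the promoter. *Gfra1*, a receptor of GDNF, had 11 peaks, while *Ret* had 1 and was unmarked. The ligand gene *Ntf3* was unmarked with 5 peaks nearest to it, *Bdnf* was marked, and *Gdnf* had no peak.

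Neuronal and axonal genes were mostly marked. Of 30 genes used by most neurons 26 were marked, the exceptions being *Dcx*, *Nefh*, *Syn1* and *Thy1*. *Rbfox3*, encoding the nuclear antigen NeuN, had 27 peaks and 23.2 kb, and *Ank3*, the ankyrin of the axon initial segment, had 15 and 11.6 kb. Of 30 genes of axon guidance and adhesion 28 were marked and all 30 had a peak, with a median of 6. *Tenm4* led with 27 peaks and 18.8 kb, and *Ncam1* had 14 and 10.8 kb. Of 30 ion channel genes 21 were marked. *Piezo2*, the mechanotransduction channel, had 3 peaks and *Scn8a* 6, whereas the nociceptor genes *Trpv1*, *Trpa1*, *Trpm8* and *Scn11a* had none and *Scn10a* and *Asic3* were unmarked.

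Of selector genes of other lineages 6 of 32 were marked (18.8%, 8.89 to 35.3%), namely *Dlx5*, *Emx1*, *Gbx2*, *Nkx6-1*, *Pax6* and *Sim1*. None of these had more than 3 peaks, and *Gbx2* had 2 covering 1232 bp. The 5 unmarked genes with the most ATAC peaks in the promoter region were *Sema6b* with 5, and *Fcgr3*, *Gabrg1*, *Kcnk12* and *Pcgf5* with 4 each. *Gabrg1* and *Pcgf5* had no H3K27Ac peak at all.

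Chromosomes differed in the density of peaks, and it was higher where genes were denser. Over the genome there were 11.98 peaks per Mb. Chromosome 11 was the densest with 21.2 peaks and 13.4 genes per Mb, and chromosome 3 the sparsest autosome with 9.30 peaks and 6.24 genes per Mb. The rank correlation of peaks with genes per Mb was 0.82 over 20 chromosomes, the Y left out. Among autosomes the marked share was lowest on chromosome 7, at 46.9% (44.7 to 49.1%), where 397 of 2009 genes encode olfactory or vomeronasal receptors, and it was 58.4% without them. It was highest on chromosome 12, at 70.7% (67.1 to 74.1%), which has none.

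The X chromosome had fewer peaks and fewer marked promoters than the autosomes. It had 2.76 peaks per Mb compared with 13.1 over the autosomes, and 0.871 against 7.75 peaks per Mb outside promoters. Its genes were marked in 34.3% (31.3 to 37.4%), beside 59.6% of autosomal genes. The difference held in each CpG class, with 77.2% of 79 CpG-rich (66.8 to 85.1%), 60.9% of 297 intermediate (55.3 to 66.3%) and 9.79% of 572 CpG-poor promoters (7.62 to 12.5%) against 92.5, 84.2 and 15.6% on the autosomes. Among open promoters of the X 69.2% were marked (64.9 to 73.3%), compared with 89.2% on the autosomes (88.6 to 89.7%). The Y chromosome had 11 peaks and 4 marked promoters among 183 genes. The sex of the pooled embryos is not given in the labels.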

How the data were processed

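The deposited H3K27Ac file gives interval starts and ends, with no counts or signal. The authors trimmed CUT&RUN reads with Cutadapt, aligned them to mm10 (GRCm38), kept fragments of 90 bp or less, called peaks with MACS2 against non-immune serum, kept peaks found in 3 of 5 samples, and removed blacklisted peaks and peaks with over 60% of their length in repeats. Picard 1.119 is also named in the submitters' processing notes. All 5 H3K27Ac samples name the same control, which the labels do not tie to 1 of the 5 serum samples. The lists have no replicate values, so nothing was tested between samples.

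Peaks were given to the protein-coding GENCODE M21 gene with the nearest start site to the peak midpoint (8 ties, broken by a fixed order), and a promoter was marked where a peak overlapped 1 kb on either side of any protein-coding start site by 1 bp. CpG classes, motifs and coverage profiles used the 5′-most protein-coding start site. For overlap between lists, peaks shorter than 300 bp (ATAC 500 bp) were widened as in the study. Scripts used Python 3.11.15, pandas 2.3.3, numpy 2.4.6 and pysam 0.24.0, and the interval steps were tested on simulated intervals. The genes named were the 15 with the most covered bp, the 10 with the most peaks, the 10 with the widest promoter peak, the 10 with the most covered bp per kb, the 5 unmarked genes with the most ATAC peaks at the promoter, and members of gene lists, with family members named beside their counts. Members, families and lists were chosen with earlier results of these data known. Repeated-word shares were added after the widest peaks were seen. Some genes that the rule names are not reported here.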

Additional observations from a re-analysis of the deposited data

How the results depend on the processing

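With 1 consensus list, no replicate could be left out, and depth limits detection to an unknown degree. No paired analysis was possible because the list carries no sample values. The share of genes with a marked promoter (58.0%) was 57.3% within 500 bp, 59.1% within 2 kb, 56.6% from 1 kb upstream to 100 bp downstream, 54.9% with 1 start site per gene, 54.0% with peaks of at least 500 bp and 53.8% where at least 500 bp had to be covered. The share of peaks in promoters (41.1%) was 42.8% with any overlap, 34.3% with 1 start site per gene, 47.7% with every annotated transcript and 51.6% with peaks of at least 500 bp. With classes set over 250 bp before to 50 bp after the start site, 91.3% of CpG-rich, 80.2% of intermediate and 19.4% of CpG-poor promoters were marked. With 500 bp promoters, 82.1% of intermediate and 13.1% of CpG-poor ones were. Overlap with ATAC was 72.5% without widening. Of the 15 genes with the most covered bp, 3 remained when coverage was taken per stretch, 12 with 1 start site per gene, 11 without peaks of 10 kb or more and 10 without repeated peaks, both of these chosen after seeing the data. Of 78 families and lists, 34 lay above the share of all genes, and 6 crossed it under another window or start site, among them the neurotrophic factor list (37.5% with 1 start site per gene), sodium channels (40%) and calcium channels (50%). With 1 start site per gene no olfactory receptor promoter was marked (0%). The other alternatives, in counts of genes and medians, stayed within 1.5 times.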
